A study of Mus musculus with 1 sample.

Results

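Small nucleolar RNA (snoRNA) genes were examined in 1 RNA-seq library of cultured mouse glia. Members were all rows of the expression table whose gene symbol began with Snord or Snora and a digit. The rule took 112 of 23282 rows, with 110 different symbols, since Snord58b and Snord53 each had 2 rows. Of the members, 76 were rows of C/D box genes (Snord), the 2 second rows included, and 36 were rows of H/ACA box genes (Snora).

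The study asked what inhibition of the kinase SGK1 does to glia of the ventral midbrain (VM), the region that loses dopamine neurons in Parkinson disease. The library came from primary mixed glia grown from the VM of outbred ICR (CD-1) mice at postnatal day 5. It belonged to the control group, which received the vehicle DMSO according to the study, and the labels name no genetic change. Glia treated with the inhibitor were not analysed here, and no contrast between treatments was made.

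Each gene had 1 normalised read count, computed by the authors, and these added up to 27569507. As the library had no replicate, no error between cultures can be given, and the read depth behind the values is unknown. The table held high values for astrocyte markers (Gfap 17222) and microglial markers (Csf1r 31413, C1qa 32619). The 4 neuronal markers ranged from 0 for Slc17a6 to 86 for Snap25. In such a mixed culture, fewer cells of a type and less RNA per cell cannot be told apart.

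SnoRNAs are short stable RNAs of the nucleolus that guide chemical changes of ribosomal RNA by base pairing. C/D box snoRNAs direct 2′-O-methylation by the methyltransferase fibrillarin, and H/ACA box snoRNAs direct pseudouridylation by the enzyme dyskerin. A few act instead in the cleavage of the ribosomal RNA precursor. In mammals most snoRNA genes lie in introns of other genes, their hosts. The snoRNA is released when the spliced intron is opened and trimmed to the ends that the bound proteins protect. Many hosts encode ribosomal proteins or translation factors, while others are noncoding RNAs that are known mainly for carrying snoRNAs.

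The letters that give both classes their names could be read in the gene sequences. Sequences, positions and hosts came from GENCODE release M21 on the GRCm38 build, which matched 109 of the 110 symbols. The 2 highest H/ACA genes by value were Snora52 (chr7:141448803-141448939, plus strand), in intron 3 of Rplp2, and Snora7a (chr6:115807975-115808114, minus strand), in intron 1 of Rpl32. They are shown for the ACA box, in capitals, which stands 3 bases before the end of the RNA.
Snora52: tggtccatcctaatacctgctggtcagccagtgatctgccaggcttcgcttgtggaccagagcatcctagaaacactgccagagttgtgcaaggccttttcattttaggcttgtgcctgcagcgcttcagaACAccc
Snora7a: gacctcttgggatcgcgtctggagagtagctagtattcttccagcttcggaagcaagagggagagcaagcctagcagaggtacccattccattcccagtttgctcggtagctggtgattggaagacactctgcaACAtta
The letters ACA stood at that place in 30 of 36 H/ACA genes (83.3%) and in 0 of 73 C/D genes with a sequence. The share was 2.33% of 3822 other short RNA genes of 40 to 250 bases (small nuclear, micro and miscellaneous RNAs).

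C/D box genes carry the C box near the start and the D box near the end, and the guide stretch lies next to a D box. The 4 C/D genes of Rpl13a are shown with the core of the C box (TGATG) and the D box (CTGA) in capitals, because their values spanned the widest range among hosts with several members. All 4 lie on the minus strand of chromosome 7, Snord32a at chr7:45127382-45127464, Snord33 at chr7:45126864-45126947, Snord34 at chr7:45126601-45126670 and Snord35a at chr7:45126346-45126435.
Snord32a: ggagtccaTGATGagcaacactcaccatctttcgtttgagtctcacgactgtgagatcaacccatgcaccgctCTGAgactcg
Snord33: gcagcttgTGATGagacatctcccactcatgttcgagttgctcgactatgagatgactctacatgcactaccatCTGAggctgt
Snord34: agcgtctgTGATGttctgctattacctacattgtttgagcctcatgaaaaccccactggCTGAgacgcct
Snord35a: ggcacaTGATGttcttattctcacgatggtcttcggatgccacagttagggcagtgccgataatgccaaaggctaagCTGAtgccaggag
TGATG occurred in the first 20 bases of 62 of 73 C/D genes (84.9%), and CTGA occurred in the last 15 bases of 66 (90.4%). Both were present in 58 (79.5%), in 0 of 36 H/ACA genes and in 0.157% of the other short RNA genes. On the opposite strand the pair was present in 0 of the 73 C/D genes and in 0.0523% of the other short RNA genes. The windows of 20 and 15 bases were chosen after the sequences were seen.

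Of the 112 members, 86 (76.8%) were detected, which means a value of at least 10, against 67.2% of all rows. This held for 56 of 76 C/D rows (73.7%) and 30 of 36 H/ACA rows (83.3%). A value of 0 was listed for 9 members (8.04%, 8 of them C/D rows), against 21.8% of all rows. Of these 8 rows, 2 were the second rows of Snord58b and Snord53, whose first rows had 820 and 73. Values of 1000 or more were reached by 24 members (21.4%, 13 C/D and 11 H/ACA genes), against 21.5% of all rows. The members were thus listed at 0 less often than rows in general, while their share of high values was close to the background. Their median value was 56.5, against 119 over all rows. Just inside the minimum of 10 were Snord61 (12), Snord88a (11), Snora36b (10) and Snord71 (10), and just outside it were Snora26 (9), Snord92 (9), Snord88c (8) and, tied at 7, Snord116l1, Snord1a and Snord98.

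Together the members held 0.389% of the sum of all values, 0.221% in C/D genes and 0.168% in H/ACA genes. A small number of members carried most of this. Snora52 alone held 18.6% of the members' sum, the 3 highest members 40.7% and the 10 highest 66.2%. Reads of a mature snoRNA and reads of the unspliced host transcript fall on the same bases, so the 2 sources cannot be told apart in these values. The library was made with an mRNA kit from total RNA, and how well it captured RNAs this short was not stated. Annotated exons of other transcripts overlapped 54 members. These had a median per-length level of 955, and the 55 members without overlap had 830. The gap differed by class. H/ACA genes had 1199 with overlap (n = 20) and 424 without (n = 16), while C/D genes had 955 (n = 34) and 876 (n = 39). Here and for all comparisons of levels between genes, the per-length level is the normalised read count per 1000 bases of gene (for hosts, of exon). No correction for read length was made, and RefSeq lengths of members ran from 28 to 221 bases. Per-length comparisons between genes of unlike length are therefore uncertain. Gene lengths for this were those of RefSeq, which were shorter than the GENCODE spans of the printed sequences for 87 members (medians of 81 and 90 bases). Per-length levels depend on that choice, for example 16333 against 7259 for Snord43 and 27021 against 15081 for Snord68.

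Which class was higher depended on the scale. The median value was 52.5 for C/D genes and 60 for H/ACA genes, a difference of 0.19 for H/ACA minus C/D on the log2(value + 1) scale. The C/D medians over all members include the second rows of Snord58b and Snord53, both at 0. C/D genes were shorter, with a median length of 68 bases against 119.5 in the RefSeq annotation. On the per-length scale the medians were 876 for C/D genes and 587 for H/ACA genes, and the log2 difference turned to -0.57. Among detected members alone it was -0.24 on the value scale.

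Members in ribosomal protein genes had higher levels than those in other hosts. The annotation placed 32 members in 23 ribosomal protein genes, 49 in 38 other protein-coding genes and 24 in 16 noncoding genes. Of the other 7 rows, 4 had no annotated host on their strand (Snord118 120, Snord104 46, Snora17 6, Snora43 1), Snord116 had no annotated position, and the second rows of Snord58b and Snord53 were at 0. Members in ribosomal protein genes had a median per-length level of 16755, against 469 in other protein-coding genes and 329 in noncoding genes. They included 22 of the 24 members at 1000 or more and held 89.7% of the members' sum. The other 2 were Snora31 in Tpt1 and Snord37 in Eef2, the gene of translation elongation factor 2. Within ribosomal protein hosts the median per-length level was 17177 for 21 C/D genes and 13915 for 11 H/ACA genes, while the median values were 1297 and 1809. No member in a noncoding host exceeded a value of 230 (Snord22 in Snhg1).

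**Figure D1:**
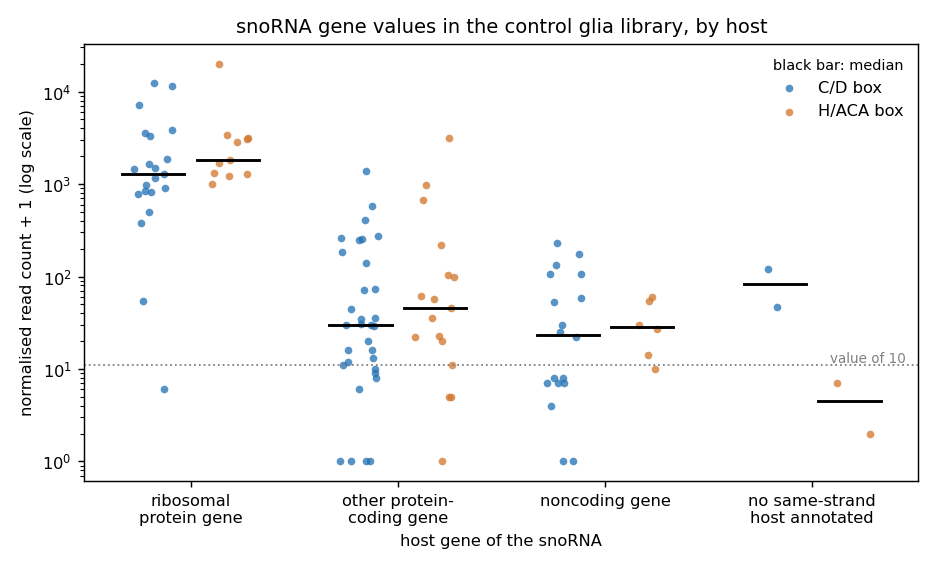
Normalised read count plus 1 (log scale) of each snoRNA gene in the control library, by the kind of host gene and by class, with a black bar at the median of each group. Of the 32 genes in ribosomal protein hosts 31 lie above the dotted line at a value of 10, and their median value is 1472.5, against 30 in other protein-coding hosts and 25 in noncoding hosts.

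Of the 10 highest H/ACA genes by value, 9 were in ribosomal protein hosts. Snora52 had a value of 19955, or 148918 per 1000 bases, in Rplp2, the gene of an acidic stalk protein of the large subunit. Snora7a (Rpl32), Snora31 (Tpt1), Snora21 (Rpl23), Snora65 (Rpl12) and Snora3 (Rpl27a) followed with values of 3353, 3173, 3127, 3060 and 2851. The per-length levels of these 5 ran from 23758 for Snora3 to 28330 for Snora31. Snora62 (Rpsa), Snora70 (Rpl10), Snora69 (Rpl39) and Snora33 (Rps12) completed the 10 highest, with values of 1809, 1682, 1319 and 1271. Snora52 thus stood apart from the other H/ACA genes on both scales. It overlapped annotated exons of other transcripts, as did Snora7a, Snora65, Snora3, Snora70 and Snora33, so these values may include reads of such exons.

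Among C/D genes, Snord34 had the highest per-length level of all members, 173136, with a value of 11427. Snord35a followed with 137865 per 1000 bases (value 12270) and Snord42b with 128655 (value 7076). Snord33, Snord4a and Snord100 formed a second step at 46842, 50371 and 48647 per 1000 bases, with values of 3841, 3526 and 3308. Snord38a (1882), Snord15a (1644), Snord83b (1499) and Snord15b (1446) completed the 10 highest values. Hosts of these genes included the ribosomal protein genes Rpl13a, Rpl23a, Rps12, Rps3 and Rpl3.

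The level of a snoRNA gene was set against that of its host for 101 members with a host value above 0, in 73 hosts. The hosts themselves were well expressed, with a median value of 4059, and 56 of 73 had 1000 or more, against 21.5% of all rows. Across the 101 members, per-length levels of member and host had a Spearman rho of 0.805 (0.716 for the values). The rho was 0.758 for 69 C/D genes and 0.900 for 32 H/ACA genes. All points share 1 library, members of a host share its value, and the kinds of host differ in level. Within ribosomal protein hosts the rho was 0.569 (n = 32), within other protein-coding hosts 0.580 (n = 46) and within noncoding hosts 0.796 (n = 23).

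**Figure D2:**
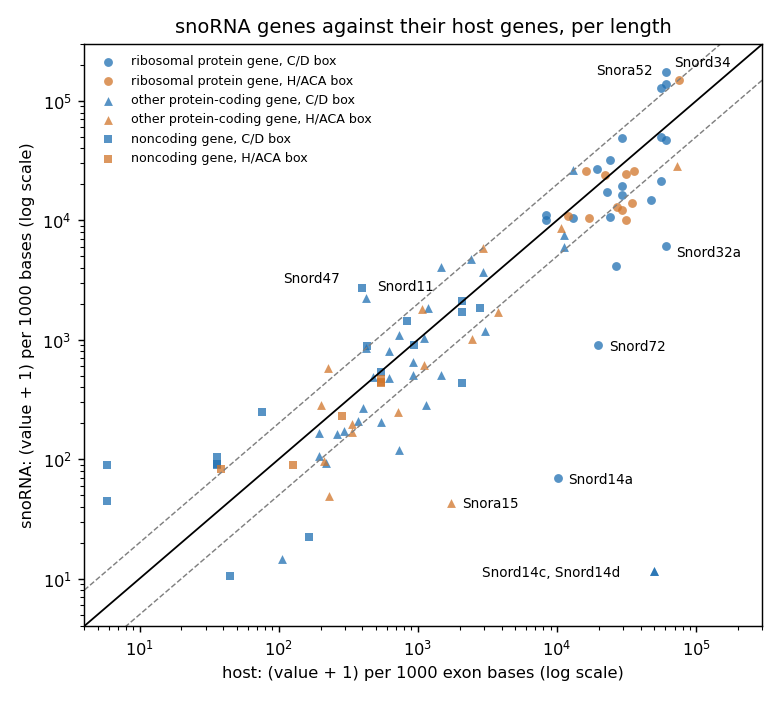
Per-length level of each of 101 snoRNA genes, as (value + 1) per 1000 bases, against that of its host gene per 1000 exon bases (both log scales), by class (colour) and kind of host (symbol). The solid line marks equal levels and the dashed lines 2-fold above and below it. Of the 101 genes 54 lie between the dashed lines, and 6 lie over 8-fold below the solid line.

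With the lengths used here, the typical member had a per-length level somewhat below that of its host's exons. The median log2 difference, member minus host, was -0.36 (quartiles -1.25 and 0.56), and 54 of 101 members were within 1 of their host. Members over 1 above the host numbered 16, and those over 1 below it 31. The median was -0.33 for C/D genes and -0.48 for H/ACA genes. It was -0.38 in ribosomal protein hosts, -0.79 in other protein-coding hosts and -0.02 in noncoding hosts. The sign of the median depended on the host length used. It became 0.54 with the union of all annotated transcripts of the host, and -1.44 with the coding length of protein-coding hosts. The members that overlapped no annotated exon had a median of -0.69.

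Some members departed widely from their hosts. The 3 detected members furthest above were Snord47 in Gas5 (2.75 on the log2 per-length scale), Snord11 in Nop58 (2.38) and Snord123 in Snhg18 (1.73). Snord47 had a value of 174 and Gas5, a growth arrest associated noncoding RNA, had 1021. The exon models of Gas5 (2556 bases) and Nop58 (9507 bases) were long, and with the coding length of Nop58 (1608 bases) the difference of Snord11 was -0.18. Gas5 is noncoding and has no coding length for such a check, so the rank of Snord47 rests on its long model. The 3 detected members furthest below were Snord72 in Rpl37 (-4.46), Snord32a in Rpl13a (-3.31) and Snord16a in Rpl4 (-2.66). Snord72 had a value of 53 where Rpl37 had 16524, and it overlapped no annotated exon. With coding lengths these 3 remained below their hosts, at -5.98, -4.09 and -2.96.

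Snord72 (chr15:5118404-5118484, plus strand, intron 3 of Rpl37) and Snord47 (chr1:161038082-161038158, plus strand) are shown as the 2 ends of this range, with the C and D boxes in capitals. In the 2556-base model of Gas5 used, Snord47 lay in intron 2 of 3, and this number depends on the transcript model.
Snord72: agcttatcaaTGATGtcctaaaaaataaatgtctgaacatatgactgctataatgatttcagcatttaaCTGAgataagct
Snord47: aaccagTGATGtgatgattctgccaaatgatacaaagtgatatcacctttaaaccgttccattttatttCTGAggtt
Both boxes were present in both genes.

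Several snoRNA genes in the same host did not have the same level. Of the 73 hosts, 21 held 2 or more members, 49 members in all. A range of per-length levels could be given for 20 of these hosts, since both members of Hspa8 were at 0. The highest member exceeded the lowest over 3-fold in 6 hosts, 2- to 3-fold in 3 and under 2-fold in 11, with a median of 1.70-fold. With GENCODE gene lengths the counts were 7, 4 and 9. The per-length range was 9.90-fold in Wdr43 (Snord92 9, Snord53 73) and 8.17-fold in Nop56 (Snord110 29, Snord57 253), where the numbers in parentheses are values. Snord92 was under the minimum of 10. The counts of hosts also include some whose members were all under it, such as 1810032O08Rik (6 to 7) and Snhg14 (3 to 7).

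Rpl13a, a large subunit protein gene, held 4 members with the widest of the 20 ranges, 28.4-fold per length. In 5′ to 3′ order along the gene the values were 493 for Snord32a in intron 2, 3841 for Snord33 in intron 4, 11427 for Snord34 in intron 5 and 12270 for Snord35a in intron 6. The per-length levels were 6086, 46842, 173136 and 137865, while the exons of Rpl13a stood at 60334 per 1000 bases. Thus Snord32a was far under the host, Snord33 slightly under it, and the other 2 over it. These introns were all short, from 171 to 240 bases. The snoRNAs of this gene are known from work on lipotoxic and oxidative stress.

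In Rpl23a the order was the opposite. Snord42b in intron 1 had a value of 7076, Snord4a in intron 2 had 3526 and Snord42a in intron 3 had 964. The per-length levels were 128655, 50371 and 21422, against 56411 for the exons of Rpl23a. Snord42a (chr11:78181299-78181363) and Snord42b (chr11:78183056-78183124), both on the minus strand, are copies with 68.6% identity and are shown with the boxes in capitals.
Snord42a: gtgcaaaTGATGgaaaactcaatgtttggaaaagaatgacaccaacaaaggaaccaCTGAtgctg
Snord42b: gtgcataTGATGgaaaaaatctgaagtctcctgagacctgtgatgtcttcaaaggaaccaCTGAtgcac
Both copies had intact box letters, and their per-length levels differed 6.01-fold.

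The noncoding hosts with 3 or more members were at lower levels. In 2410006H16Rik the per-length levels were 2095 for Snord49b, 1694 for Snord49a and 421 for Snord65, against 2061 for the host. The 3 H/ACA genes and 1 C/D gene of Snhg12 ran from 419 per 1000 bases for Snora61 to 518 for Snord99 with RefSeq gene lengths, a 1.23-fold range, and the host stood at 543. With GENCODE gene lengths the range was 2.15-fold, and in the values, from 26 for Snora61 to 59 for Snora16a, it was 2.27-fold. Snord1a, Snord1b and Snord1c in 1810032O08Rik, a gene also named Snhg16, had values of 7, 6 and 6 and were not detected.

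**Figure D3:**
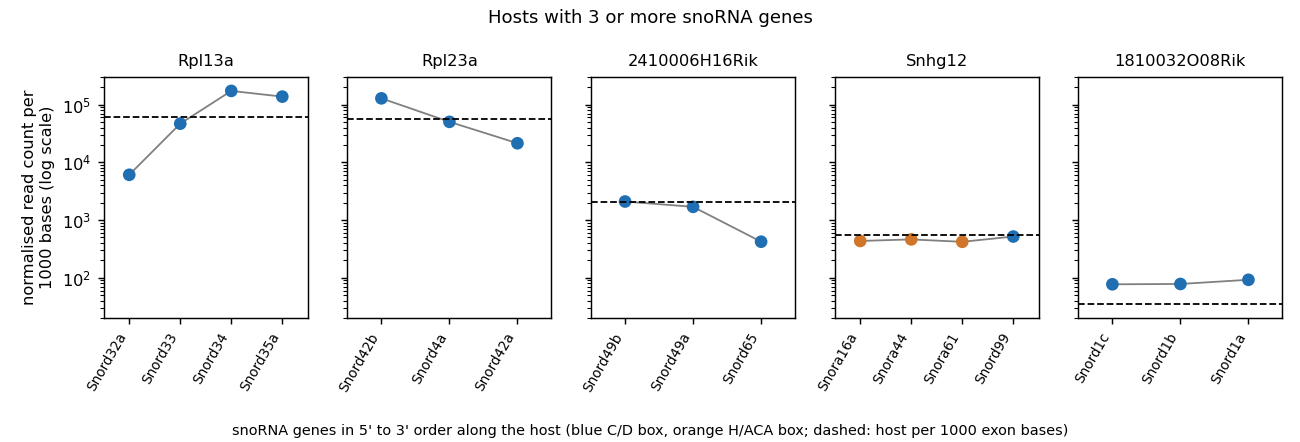
Per-length level (normalised read count per 1000 bases, log scale) of the snoRNA genes of the 5 hosts with 3 or more of them, in 5′ to 3′ order. Blue points are C/D genes, orange points are H/ACA genes and the dashed line is the host per 1000 exon bases. The points span 28.4-fold in Rpl13a, falling from the left in Rpl23a, and span 1.23-fold in Snhg12 with the RefSeq gene lengths plotted (2.15-fold with GENCODE lengths).

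SnoRNAs that act in ribosomal RNA processing gave divergent values. U14, encoded by the Snord14 genes, is needed for 18S rRNA. Snord14a had a value of 5 in Rps13 (host value 5966), and Snord14c and Snord14d were at 0 in Hspa8, a chaperone gene with a value of 118379, or 49448 per 1000 exon bases. Snord14a was at 57.5 per 1000 bases where the exons of Rps13 were at 10129. In contrast Snord118, encoding U8, which acts in 28S and 5.8S rRNA maturation, had a value of 120 without an annotated host on its strand. Snord22 had 230 in Snhg1, and Snora62 had 1809 in Rpsa. In all, 5 of 9 listed C/D genes and 1 of 4 listed H/ACA genes of this kind had a row. Of these 6, 3 were detected, where 67.2% of all rows were.

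The 3 Snord14 genes are shown as copies with values at or near 0, and Snord118 as a member whose TGATG lies further inside the RNA than the first 20 bases. They are Snord14a (chr7:116333171-116333257, minus strand), Snord14c (chr9:40803583-40803668, plus strand), Snord14d (chr9:40803995-40804080, plus strand) and Snord118 (chr11:69073427-69073561, plus strand), again with the boxes in capitals.
Snord14a: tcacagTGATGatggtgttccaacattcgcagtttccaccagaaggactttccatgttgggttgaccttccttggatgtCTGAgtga
Snord14c: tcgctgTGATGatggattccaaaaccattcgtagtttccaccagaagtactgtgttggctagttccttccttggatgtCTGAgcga
Snord14d: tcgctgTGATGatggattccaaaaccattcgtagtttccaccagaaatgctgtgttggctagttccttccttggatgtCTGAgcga
Snord118: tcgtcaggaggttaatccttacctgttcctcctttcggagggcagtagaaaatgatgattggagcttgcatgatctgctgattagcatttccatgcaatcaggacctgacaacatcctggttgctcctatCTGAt
Snord14c and Snord14d were 97.7% identical, and Snord14a was 78.5% identical to Snord14c. How reads that map to more than 1 place were counted was not stated, so values of near-identical copies are uncertain. All 3 genes also overlapped annotated exons of other transcripts. Snord118 had the D box letters at its end.

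Other copies were compared in the same way, 13 pairs in all, and 4 of them were 80% identical or more. Beside Snord14c and Snord14d these were Snord116l1 and Snord116l2 (100%), Snord1b and Snord1c (97.4%) and Snord88a and Snord88c (94.4%). The highest value in these 4 pairs was 11, for Snord88a. Of the less similar copies, Snord15a and Snord15b (66.0% identity, both in Rps3) had per-length levels of 11108 and 9972.

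Further members were at or near 0 in hosts of several kinds. The Snord116 cluster, which lies in the Prader-Willi region and is known to be active in neurons, gave 2 for Snord116, 7 for Snord116l1 and 3 for Snord116l2. Its host Snhg14 had 38, and Snord64 of the same region was at 0. Snora35 was at 0 in Htr2c, a serotonin receptor gene that was also at 0. Snord7 and Snord93 in noncoding hosts and Snord90 in Rc3h2 were further members at 0. Snora15 in Cct6a, a chaperonin subunit gene with a value of 6300, had a value of 4.

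The place of the genes within introns was a shared feature that the selection had not used. For 98 members the annotation gave an intron of the host. Its median length was 434 bases, and 55 of 98 introns were under 500 bases. The C/D genes ended a median of 85 bases before the next exon, with 42 of 67 within 100 bases. H/ACA genes ended a median of 175 bases before it, and 10 of 31 were within 100 bases. The longest intron, 50470 bases, was that of Snora15 in the annotated model of Cct6a.

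**Figure D4:**
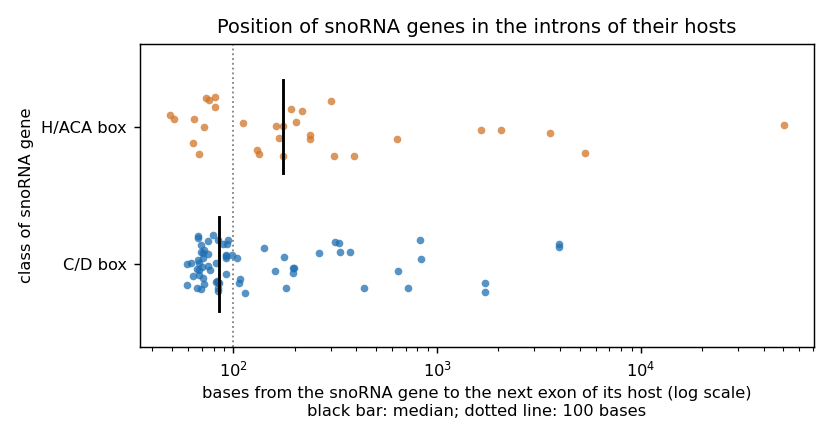
Distance in bases (log scale) from the 3′ end of each snoRNA gene to the next exon of its host, for 67 C/D genes and 31 H/ACA genes, with a black bar at each median. C/D genes gather left of the dotted line at 100 bases around their median of 85, and H/ACA genes spread more widely around 175.

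Rank correlations between the position and the level relative to the host were weak, while medians were lower in introns of 500 bases or more. Over the 98 members, the Spearman rho between the log2 difference (member minus host, per length) and intron length was -0.14. It was -0.03 with the distance to the next exon and -0.10 with the distance from the previous exon. The median difference was -0.09 for 28 members in introns under 250 bases and -0.40 for 27 members in introns of 250 to under 500 bases. It was -0.79 for 33 members in introns of 500 to under 2000 bases and -0.74 for 10 members in longer introns. The hosts differed between these bins too, with median host values of 14160, 15957, 3588 and 2087 from the shortest introns to the longest. Whether intron length or host goes with the lower medians was not tested. Over the 82 members at 10 or more, the rho with intron length was -0.09.

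The proteins that snoRNAs need were all expressed. Of the C/D core proteins, fibrillarin (Fbl) had 1911 per 1000 exon bases, its partners Nop56 and Nop58 had 1462 and 427, and Snu13, which binds the C/D fold, had 684. Their values were 2288, 2744, 4059 and 1420. The exon model of Nop58 was long (9507 bases, of which 1608 were coding). Its per-length level, its rank and the C/D median below therefore depend on that model. Of the H/ACA core proteins, dyskerin (Dkc1) had 218 per 1000 exon bases, Nhp2 had 1389, Nop10 had 841 and Gar1 had 437. Their values were 610, 1447, 933 and 555. The median per-length level was 1073 for the 4 C/D proteins and 639 for the 4 H/ACA proteins, and the 2 ranges overlapped.

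Genes of assembly and maturation factors were all detected, against 67.2% of all rows. All 10 assembly factors passed the minimum, from Shq1 (113), a dyskerin chaperone, to Nolc1 (3355), a nucleolar scaffold protein. All 7 release and trimming factors passed it too, from Dbr1 (309), which opens the intron lariat, to the exonuclease Xrn2 (2722). Of the long noncoding snoRNA hosts 20 of 21 had a row, and all 20 were detected, from Snhg9 (22) to Snhg1 (1680), with a median value of 247.

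**Figure D5:**
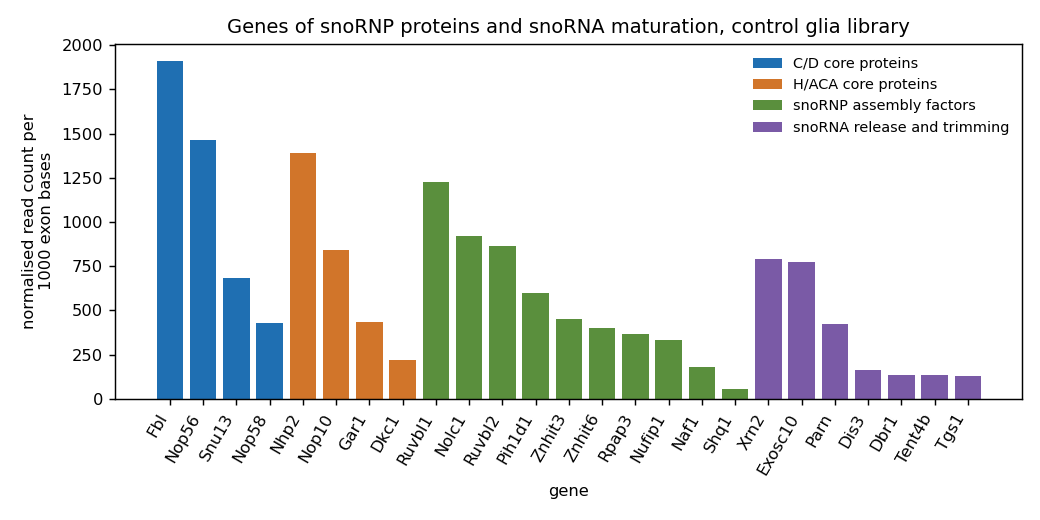
Normalised read count per 1000 exon bases of the genes for C/D and H/ACA core proteins, assembly factors and release and trimming factors in the control library. With these exon lengths Fbl is highest at 1911, and Dkc1 is lowest of the 8 core protein genes at 218. The place of Nop58 depends on its long exon model.

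Of 6 other short noncoding RNA genes with a row, 4 were detected, which is 66.7% against 67.2% of all rows, and the median value was 21.5. Their annotated lengths ran from 134 bases for Rnu11 to 423 for Terc, so several were longer than any snoRNA gene here, whose longest was 221 bases. The vault RNA gene Vaultrc5 had 205, Rmrp, the RNA of a ribosomal RNA processing nuclease, had 29, and the telomerase RNA gene Terc had 4. On the per-length scale their median was 81.4, against 864 for the snoRNA genes.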

How the data were processed

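Total RNA was isolated with Trizol, and a SMARTer mRNA kit was used to make 1 library. The study's methods state that bases of quality below 20 were removed, STAR mapped the reads to GRCm38/mm10, and HTSeq-count assigned them to exons of RefSeq Release 105. The submitters' processing notes name TopHat and edgeR without a role. The deposited values are whole-number normalised read counts, treated here as a score and not as raw counts, since the authors did not state the normalisation. Strand setting and multi-mapped read handling were not stated.

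The members and lists were chosen with earlier results of these data known. The host was the same-strand GENCODE M21 gene holding the member, with genes that have a row first, protein-coding genes next, then the shortest. Gene length came from RefSeq, and host exon length from RefSeq-paired transcripts. Log2 values used a pseudocount of 1. Named were the 10 highest members of each class, list members, members of hosts with 3 or more, the 3 furthest from their host each way, those next to the minimum of 10, and genes at 0 or of near-identical pairs. The last 2 kinds, and members of Wdr43, Nop56 and Cct6a, were chosen after their values were seen. Some genes that the rule selects are not named here. Python 3.11.15, pandas 2.3.3, scipy 1.17.1 and Biopython 1.88 were used, and the calculations were tested on simulated data.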

Additional observations from a re-analysis of the deposited data

How the results depend on the processing

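Of 41 alternative values for 10 results, 26 kept direction and stayed within the limits set (1.5-fold, or 0.1 for a correlation). A further 9 moved by more than these limits and 6 turned direction. The log2 difference of medians, H/ACA minus C/D, turned from 0.19 to -0.57 per 1000 bases, to -0.55 with GENCODE lengths and to -0.24 among members at 10 or more. On the value scale it was 0.48 within ribosomal protein hosts, 0.62 within other protein-coding hosts and 0.28 within noncoding hosts. With only the highest value of each class per host gene it was 0.71. The median log2 difference of member minus host turned to 0.54 for all members, 0.65 for C/D genes and 0.25 for H/ACA genes when the host length came from all annotated transcripts, which makes hosts longer. With coding lengths of protein-coding hosts it moved to -1.44, -1.14 and -1.72. A minimum of 100 left 34 C/D and 16 H/ACA genes, and the medians of members at 10 or more were 178.5 and 161.5, since low members leave. The Spearman rho of member and host values was 0.821 over 83 members at 10 or more and 0.824 over 49 members without exon overlap, and the cause was not tested. Of the alternatives, 18 were chosen after seeing the data: GENCODE gene lengths, both other host lengths, single host classes, the correlations over 83 and 49 members, and members at 10 or more for the difference from the host. With 1 library, no replicate could be left out. No paired analysis was possible because the series held 1 sample here. A different normalisation by the authors could change levels, and depth could not be used to set a detection limit.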

Other observations

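RefSeq lists further small nucleolar RNA genes whose symbols begin with neither Snord nor Snora, and 9 of them had a row. AF357399 had a value of 806 and Gm12238 had 38, while the other 7 lay between 0 and 8. Small Cajal body RNA genes (Scarna), which guide changes of spliceosomal RNAs with the same box structures, were low as well. Of 9 with a row, 2 were detected (22.2%, against 67.2% of all rows), Scarna3a at 62 and Scarna10 at 12. Scarna2 and Scarna3b were at 0. These genes were named after their values were seen.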
